A study of Mus musculus with 6 samples.

Results

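The epithelial sodium channel (ENaC) and the genes of its control by aldosterone were followed in kidneys of mice that lack Pkd2 in tubules, with and without miR-214. The set held 9 of the 20138 genes of the authors' deposited table, chosen by gene symbol. They were the channel subunit genes Scnn1a, Scnn1b and Scnn1g, the mineralocorticoid receptor gene Nr3c2 and the enzyme gene Hsd11b2, the effectors Sgk1 and Tsc22d3, and the sodium pump genes Atp1b1 and Fxyd4. All 9 were found. The kidneys called Pkd2-miR-214-KO had the genotype Pkhd1Cre; Pkd2 F/F; miR-214null, and those called Pkd2-KO had the genotype Pkhd1Cre; Pkd2 F/F. There were 3 animals of each genotype, all taken at postnatal day 35, and whole kidneys were frozen for RNA sequencing. Both genotypes therefore carry the Cre driver and the floxed Pkd2 alleles, and neither stands for a healthy kidney. The Pkhd1 promoter drives Cre mainly in tubule epithelium, the collecting duct included, so Pkd2 is left intact in other cells of these kidneys. The labels say nothing of sex, of litters or of the cells in which the miR-214 allele is null.

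ENaC is the channel through which principal cells of the collecting duct and cells of the connecting tubule take up sodium from the urine, and it is assembled from an alpha, a beta and a gamma subunit. Aldosterone enters these cells and binds the mineralocorticoid receptor, while the enzyme 11-beta-hydroxysteroid dehydrogenase type 2, encoded by Hsd11b2, inactivates glucocorticoids that would otherwise occupy that receptor. The hormone-bound receptor raises transcription of Sgk1, whose kinase holds back the ubiquitin ligase that removes ENaC from the membrane, and of Scnn1a and Tsc22d3. Sodium leaves the cell on the other side through the sodium pump, of which Atp1b1 encodes a beta subunit and Fxyd4 a regulatory subunit of the collecting duct. In polycystic kidneys much of the cyst lining comes from this part of the nephron.

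Mature miR-214 was the RNA removed by design, and its 2 arms are shown because their seeds set which transcripts they can pair with. The seed, bases 2 to 8, is in capitals, and the sequences are those of RefSeq on GRCm38.p6, at chr1:162223438-162223459 for the 3p arm and chr1:162223397-162223418 for the 5p arm, both on the plus strand.
mmu-miR-214-3p: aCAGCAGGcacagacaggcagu
mmu-miR-214-5p: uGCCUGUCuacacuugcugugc

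The 7-base complement of the 3p seed, CCTGCTG, was looked for in 1 UTR per gene, the longest 3' UTR that GENCODE M21 annotates for each of the 9 genes. It was present in 2 of them, Scnn1g and Tsc22d3, each with 1 copy. Over all 16900 genes with such a UTR, 21.3% held it. The Scnn1g match lies at chr7:121767635-121767663 on the plus strand, from base 97 of a UTR of 926 bases. The Tsc22d3 match lies at chrX:140539598-140539626 on the minus strand, from base 1253 of a UTR of 1340 bases. Both are shown with their flanks, and the capitals mark the 7-base match.
Scnn1g: atgtctaacagCCTGCTGtgaacaggata
Tsc22d3: tgacacctcatCCTGCTGtacgactccag

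For the 5p arm, the complement GACAGGC was in 0 of the 9 UTRs, against 9.4% of all UTRs, and its 6-base form ACAGGC was in 4 of the 9, against 29.7% of all UTRs. A match is a description of the letters and not evidence of binding. Coding sequences and shorter UTR forms were left unsearched.

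Mineralocorticoid and glucocorticoid receptors bind the same DNA element, a palindrome of AGAACA and its reverse complement TGTTCT set 3 bases apart. This palindrome, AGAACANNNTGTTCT, was searched in RefSeq promoter windows that run from 250 bases before to 50 after a transcript start. Windows were on hand for 7 of the 9 genes, 14 windows in all, and the palindrome was in 1 of them, at Sgk1. Over all 32851 windows it was in 3 (0.00913%). The other two belonged to Acnat2 and Gm35041, named after the search was seen. The single element AGAACA on either strand, which also makes up the palindrome, was in 4 of the 14 windows, all of Sgk1 or Tsc22d3, and in 19.0% of all windows. Sgk1 has 6 of these windows and Tsc22d3 has 3. The Sgk1 window with the palindrome is chr10:21993640-21993939 on the plus strand (GRCm38.p6), and the capitals mark each AGAACA and TGTTCT.
Sgk1 promoter: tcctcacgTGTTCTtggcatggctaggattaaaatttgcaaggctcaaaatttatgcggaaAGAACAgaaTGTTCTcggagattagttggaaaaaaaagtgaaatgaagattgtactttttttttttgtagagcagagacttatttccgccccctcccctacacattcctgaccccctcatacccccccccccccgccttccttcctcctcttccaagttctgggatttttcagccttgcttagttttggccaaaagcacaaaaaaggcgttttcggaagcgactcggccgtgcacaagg

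The palindrome covers chr10:21993701-21993715. It begins 189 bases before the transcript start of that window and 965 bases before the most downstream of the 6 annotated Sgk1 starts. A further TGTTCT, the first capitals of the printed window, begins 242 bases before that same transcript start. These letters say nothing of whether a receptor occupied the element in these kidneys.

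The 3 channel subunit genes all had positive folds, and none passed the threshold of an adjusted p under 0.05. Values per library were not analysed here, so each gene is given by the mean count scaled to library size (CPM) in each genotype that the fold and mean level of the authors' deposited table imply, with no SD. The log2 ratio, or log2 fold change, is Pkd2-miR-214-KO over Pkd2-KO, a direction read from Mir214 as described further on. Its approximate standard error (SE) was taken from the fold and its likelihood ratio. It carries the spread between the 3 animals of each genotype only as the authors' test saw it. In whole-kidney RNA, fewer cells of a type and less RNA per cell cannot be told apart.

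Scnn1a encodes the alpha subunit, which the other subunits need to reach the membrane. Its implied mean was 672 CPM in Pkd2-miR-214-KO kidneys and 391 CPM in Pkd2-KO kidneys. By the authors' deposited table the log2 ratio was 0.78 ± 0.34 (approximate SE) with an adjusted p of 0.770, which is a ratio of 1.72 with an approximate 95% interval of 1.09 to 2.71. That was the largest fold among the 9 genes, and its interval was the only 1 of the 9 that left out no change. Its unadjusted p of 0.0201 stood at rank 524 of 20138 per the authors' deposited table.

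Scnn1b, the beta subunit gene, had an implied mean of 209 CPM in Pkd2-miR-214-KO and 159 CPM in Pkd2-KO. Its log2 ratio per the authors' deposited table was 0.40 ± 0.27 (adjusted p = 1), with an interval for the ratio of 0.907 to 1.91. Scnn1g, the gamma subunit gene, had implied means of 119.7 CPM in Pkd2-miR-214-KO and 96.9 CPM in Pkd2-KO. Its log2 ratio per the authors' deposited table was 0.30 ± 0.22 (adjusted p = 1), with an interval for the ratio of 0.921 to 1.66. Scnn1g and Scnn1b are neighbours on chromosome 7, on the same strand and 96562 bases apart. The intervals of the 3 subunits overlapped, and a test of whether the subunits differed from each other would need values per library.

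The receptor and its guarding enzyme had the 2 negative folds of the set, and neither passed. Nr3c2, the receptor gene, had an implied mean of 20.8 CPM in Pkd2-miR-214-KO and 21.5 CPM in Pkd2-KO, with a log2 ratio per the authors' deposited table of -0.04 ± 0.25 (adjusted p = 1). The interval for its ratio ran from 0.692 to 1.36. Hsd11b2 had 231 CPM in Pkd2-miR-214-KO and 323 CPM in Pkd2-KO as implied means. Its log2 ratio per the authors' deposited table was -0.48 ± 0.31 (adjusted p = 1), a ratio of 0.715 with an interval of 0.468 to 1.09. Exons at the 5' end of Nr3c2 share 247 bases with Gm10649 on the opposite strand, a transcript with a mean log2 CPM of -4.12 per the authors' deposited table.

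Both induced effectors had positive folds without passing. Sgk1, the kinase gene described above, had an implied mean of 352 CPM in Pkd2-miR-214-KO and 237 CPM in Pkd2-KO. Its log2 ratio per the authors' deposited table was 0.57 ± 0.30 (adjusted p = 1), with an interval for the ratio of 0.989 to 2.24. Acnat2, which also has the palindrome, had a log2 ratio of -0.34 ± 0.37 per the authors' deposited table, and Gm35041 was not used here. Tsc22d3 encodes the glucocorticoid-induced leucine zipper protein GILZ, which aldosterone also induces in the collecting duct. Its implied mean was 303 CPM in Pkd2-miR-214-KO and 211 CPM in Pkd2-KO, with a log2 ratio per the authors' deposited table of 0.52 ± 0.32 (adjusted p = 1) and an interval for the ratio of 0.924 to 2.23.

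The sodium pump genes had folds near 0 and wide intervals. Atp1b1 had an implied mean of 3139 CPM in Pkd2-miR-214-KO and 2889 CPM in Pkd2-KO, and its log2 ratio per the authors' deposited table was 0.12 ± 0.37 (adjusted p = 1). Fxyd4 had an implied mean of 78.0 CPM in Pkd2-miR-214-KO and 72.4 CPM in Pkd2-KO, and its log2 ratio per the authors' deposited table was 0.11 ± 0.35 (adjusted p = 1). The intervals for their ratios ran from 0.661 to 1.79 for Atp1b1 and from 0.668 to 1.74 for Fxyd4. Atp1b1 shares 575 exon bases with Nme7 on the opposite strand, whose mean log2 CPM of 3.98 per the authors' deposited table compares with 11.56 for Atp1b1.

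**Figure D1:**
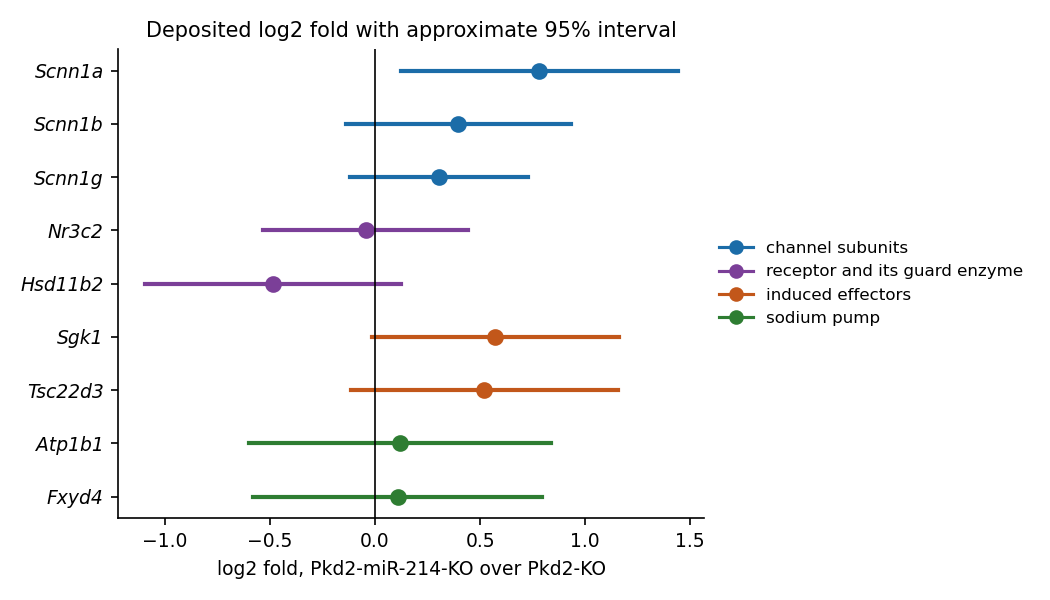
Deposited log2 ratio of each of the 9 genes, Pkd2-miR-214-KO over Pkd2-KO, with the approximate 95% interval as a line (3 animals per genotype). Scnn1a, at 0.78, is the single gene whose line does not cross 0, and Hsd11b2, at -0.48, lies farthest to the left.

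Read over the whole table, 0 of the 9 genes had an adjusted p under 0.05 per the authors' deposited table, against 0.124% of all genes (25 of 20138). At an unadjusted p under 0.05 there was 1 of 9 (11.1%), Scnn1a, against 4.82% of all genes, 3.10% in the same direction and 3.22% of the 9583 genes with a mean log2 CPM of at least 4. With 9 genes, a single call is too few to read as a share above that background. Positive folds were found for 7 of the 9 genes, against 50.9% of those 9583 genes, and genes measured in the same 6 libraries are not independent of each other. The median log2 ratio of the 9 genes was 0.30 per the authors' deposited table, against 0.00 for all genes. In absolute size the median was 0.40 for the 9 genes and 0.12 for the 9583 genes. The median approximate SE was also larger for the 9 genes, 0.31 against 0.23.

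The size of observed change that would have been called in these 6 libraries was worked out from the smallest likelihood ratio among the 25 called genes. At its own approximate SE, Scnn1g would have needed the smallest ratio, 1.83 in either direction, and Atp1b1 the largest, 2.77. Scnn1a would have needed 2.55 and Sgk1 2.31. These are observed ratios at which a call would have been made, and not limits on the true differences that the test could detect. True differences of these sizes or smaller could have been missed with these animals.

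**Figure D2:**
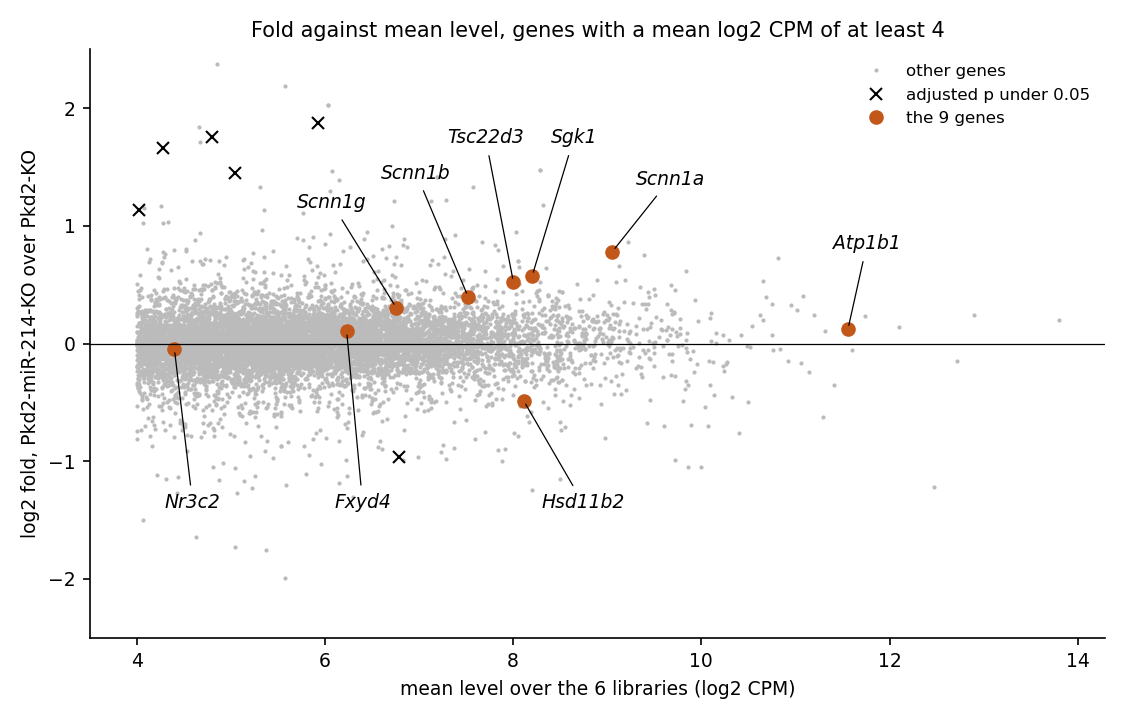
Log2 ratio, Pkd2-miR-214-KO over Pkd2-KO, against mean level (log2 CPM) for the 9583 genes with a mean log2 CPM of at least 4. The 9 genes are filled circles, crosses are the 6 genes on these axes with an adjusted p under 0.05, and 5 genes with folds beyond 2.5 are not drawn. Scnn1a (0.78), Sgk1 (0.57) and Tsc22d3 (0.52) lie above 0 and Hsd11b2 (-0.48) below it, while Nr3c2, Fxyd4 and Atp1b1 lie near 0.

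Per length of exon, Atp1b1 had the highest level of the 9 genes and Nr3c2 the lowest. Implied mean levels per kilobase of annotated exon (CPM per kb) were 1019 in Pkd2-miR-214-KO and 938 in Pkd2-KO for Atp1b1. Hsd11b2 followed with 125 CPM per kb in Pkd2-miR-214-KO and 175 CPM per kb in Pkd2-KO. Scnn1a had 163 CPM per kb in Pkd2-miR-214-KO and 94.7 CPM per kb in Pkd2-KO, so that the 2 genes stood in opposite order in the 2 genotypes. That reversal was not tested, neither fold passed, and with the longest transcript the 2 genes stood at 152 CPM per kb (Scnn1a) and 150.3 CPM per kb (Hsd11b2) over all 6 libraries.

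Among the channel subunits the levels per length decreased in the order alpha, beta, gamma in both genotypes. Scnn1b had 79.4 CPM per kb in Pkd2-miR-214-KO and 60.3 CPM per kb in Pkd2-KO. Scnn1g had 40.0 CPM per kb in Pkd2-miR-214-KO and 32.4 CPM per kb in Pkd2-KO. Over all 6 libraries Scnn1a stood at 3.56 times and Scnn1b at 1.93 times the level of Scnn1g per kilobase, without an error for want of values per library. With the longest transcript in place of all exons these became 4.20 and 1.96 times.

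Over all exons the effectors lay between the beta and gamma subunits in level, and with the longest transcript Sgk1 (95.1 CPM per kb) and Tsc22d3 (89.3 CPM per kb) stood above Scnn1b (71.0 CPM per kb). Sgk1 had 71.8 CPM per kb in Pkd2-miR-214-KO and 48.3 CPM per kb in Pkd2-KO. Tsc22d3 had 69.7 CPM per kb in Pkd2-miR-214-KO and 48.6 CPM per kb in Pkd2-KO, so these neighbours in the order were close in level. Fxyd4 had 39.8 CPM per kb in Pkd2-miR-214-KO and 37.0 CPM per kb in Pkd2-KO. Nr3c2 had 3.22 CPM per kb in Pkd2-miR-214-KO and 3.31 CPM per kb in Pkd2-KO. Over all 6 libraries Atp1b1 ranked 10 and Nr3c2 ranked 9407 among 16965 protein-coding genes by level per length.

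**Figure D3:**
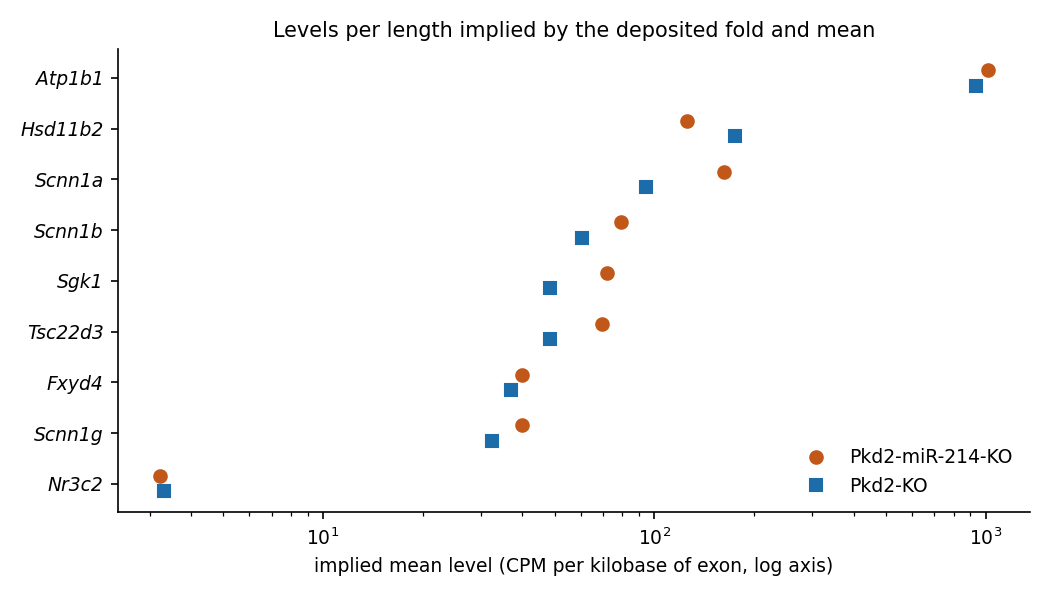
Implied mean level of each gene per kilobase of exon (log axis), with Pkd2-miR-214-KO as circles and Pkd2-KO as squares (3 animals each, no error available). Atp1b1 has the highest and Nr3c2 the lowest level, and the circle of Scnn1a lies right of its square while that of Hsd11b2 lies left.

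The 2 genes with a 7-base match to the miR-214-3p seed had log2 ratios per the authors' deposited table of 0.30 ± 0.22 (Scnn1g) and 0.52 ± 0.32 (Tsc22d3). The 7 genes without it ran from -0.48 for Hsd11b2 to 0.78 for Scnn1a, a range that takes in both. Scnn1a, which has no such match in its longest UTR, holds 1 copy of the 6-base 5p match ACAGGC. The other genes with that 6-base match are Scnn1b, Scnn1g and Sgk1. The part of miR-214 pairing in these folds was not tested.

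Beyond the 9 genes, 68 genes of 7 lists around the pathway were measured, and 0 of them had an adjusted p under 0.05 per the authors' deposited table. At an unadjusted p under 0.05 there were 4 (5.88%), 2 with positive and 2 with negative folds, against 4.82% of all genes. Their median log2 ratio was 0.02 per the authors' deposited table.

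Genes of ENaC cleavage and removal were split in sign. Among 18 genes there were 8 positive and 10 negative folds, the median was -0.05, and 0 passed even without adjustment. By the authors' deposited table the log2 ratio was -0.15 ± 0.22 for Prss8, the channel-activating protease prostasin, and 0.54 ± 0.68 for the protease gene Tmprss4. Ndfip2, an adaptor of the ubiquitin ligases, had 0.14 ± 0.24 and Cnksr3, a scaffold that aldosterone induces, -0.11 ± 0.21 per the authors' deposited table.

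The kinases around SGK1 were split, with 6 positive and 6 negative folds among 12 genes and a median of -0.01. Of the paralogs of Sgk1, Sgk2 had a log2 ratio of -0.60 ± 0.33 and Sgk3 of 0.12 ± 0.24 (adjusted p = 1 for both) per the authors' deposited table, beside the 0.57 of Sgk1. Prr5, a subunit of the kinase complex mTORC2, had -0.41 ± 0.26 and Mtor -0.29 ± 0.21 per the authors' deposited table.

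A further list, of genes taken as induced by aldosterone or glucocorticoids, had 10 positive and 4 negative folds, with a median of 0.26. It also held the glucocorticoid receptor gene Nr3c1 (0.05 ± 0.19), whose induction by these hormones is not assumed. Of these 14, 0 passed the adjusted threshold and 2 had an unadjusted p under 0.05, both with positive folds. Over all genes 4.82% had an unadjusted p under 0.05 in either direction, and 3.10% with a positive fold. Folds were positive for 50.9% of genes with a mean log2 CPM of at least 4. With 14 genes, 2 calls are too few to read as a share above that background. Hsd11b1 encodes the enzyme that regenerates active glucocorticoid, the reverse of the reaction of the Hsd11b2 product. Its log2 ratio per the authors' deposited table was 0.80 ± 0.28 (adjusted p = 0.426), against -0.48 ± 0.31 for Hsd11b2. Ddit4, a stress- and glucocorticoid-induced inhibitor of mTORC1, had 0.83 ± 0.34 (adjusted p = 0.725) per the authors' deposited table. Errfi1 had a log2 ratio of 0.51 ± 0.36 per the authors' deposited table.

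The other sodium pump subunits had 3 positive and 3 negative folds among 7 genes and 0 calls. Atp1b2 had a log2 ratio of -0.36 ± 0.25, Atp1b3 0.01 ± 0.23 and Atp1a4 -0.22 ± 0.90 per the authors' deposited table, while Atp1b4 had a fold of 0 at a mean log2 CPM of -4.12.

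The FXYD family, small membrane proteins that tune the pump, had 5 positive folds and 1 negative among 6 genes other than Fxyd4, with 0 calls. Fxyd2, the gamma subunit found along most of the tubule, was the negative one with a log2 ratio of -0.43 ± 0.37 per the authors' deposited table, and Fxyd5 (0.34 ± 0.24), Fxyd6 (0.48 ± 0.40), Fxyd7 (0.51 ± 0.61), Fxyd3 (0.29 ± 0.48) and Fxyd1 (0.05 ± 0.28) were positive. Over all 6 libraries Fxyd2 stood at 280.1 and Fxyd4 at 38.4 CPM per kb of all exons, and at 662.3 and 62.7 CPM per kb of the longest transcript.

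The acid-sensing channels, relatives of ENaC found mainly in neurons, were barely detected. The 2 genes of that list with an unadjusted p under 0.05 had negative folds, Asic3 with a log2 ratio of -1.50 ± 0.74 (adjusted p = 0.989) and Asic4 with -2.37 ± 1.20 (adjusted p = 1) per the authors' deposited table, at mean log2 CPM of -1.02 and -2.82. Asic1 (0.40 ± 0.47), Asic5 (0.70 ± 0.87) and Asic2 (0.18 ± 0.43) had positive folds per the authors' deposited table. Fitted folds and their SE are poor at such low levels.

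Potassium secretion is coupled to sodium uptake in principal cells. Among 6 genes there were 2 positive and 4 negative folds, the median was -0.10, and 0 passed even without adjustment. Kcnj1, the secretory potassium channel ROMK, had a log2 ratio of -0.36 ± 0.28 (adjusted p = 1) per the authors' deposited table.

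**Figure D4:**
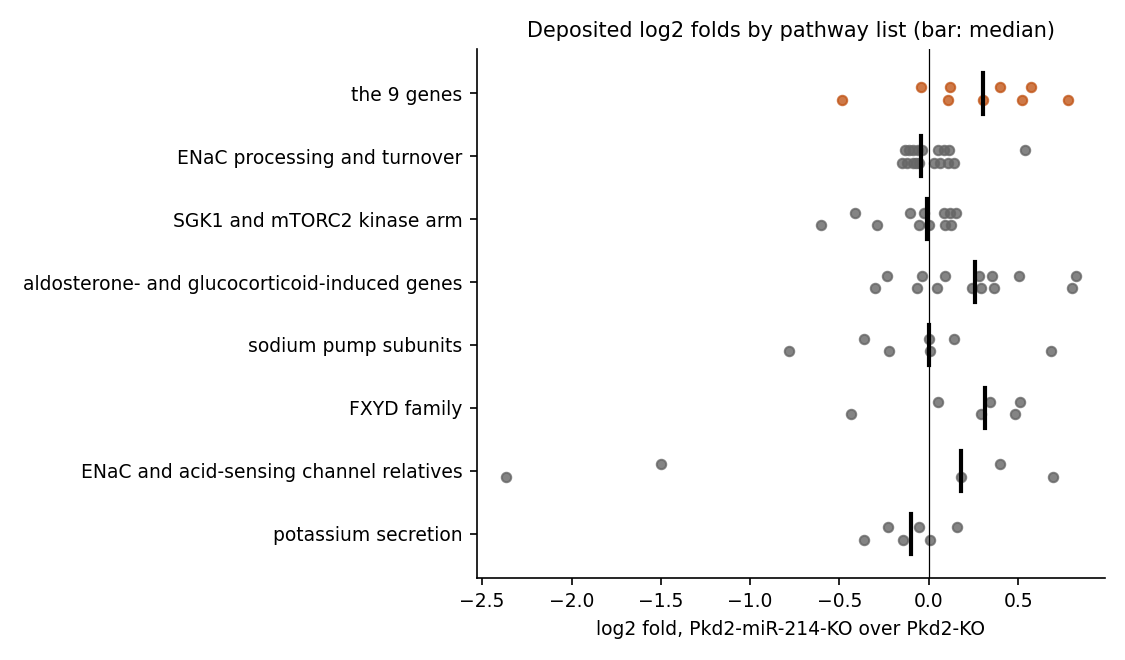
Log2 ratios, Pkd2-miR-214-KO over Pkd2-KO, of the 9 genes and of the 7 lists around them, 1 point per gene with the median of each group as a bar. The median of the 9 genes is 0.30 and that of the 14 genes in the list taken as hormone-induced 0.26. The processing, kinase and potassium lists have medians between -0.10 and -0.01.

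Markers of the cells that carry ENaC had folds on both sides of 0. All 12 principal cell and collecting duct markers were measured, with 6 positive and 6 negative folds, a median of 0.01 and 0 calls. Their summed implied level was 4798 CPM in Pkd2-miR-214-KO and 5237 CPM in Pkd2-KO. Of that sum, Cdh16 alone made up 1193 CPM in Pkd2-miR-214-KO and 1685 CPM in Pkd2-KO, a wider gap than that of the sum. The lower sum therefore rests on that single gene, whose log2 ratio was -0.50 ± 0.31 per the authors' deposited table. Krt18, a keratin also raised in injured epithelium, had the smallest p of the list, with a log2 ratio of 0.65 ± 0.32 (adjusted p = 1) per the authors' deposited table. Markers of the distal convoluted and connecting tubule had a median of -0.02 over 9 genes, and those of intercalated cells 0.20 over 8 genes, with 0 calls in each. The distal marker Pvalb had a fold of 0 and no SE at a mean log2 CPM of 2.89, and it enters that median and the sum. The summed implied levels were 2045 CPM in Pkd2-miR-214-KO and 2156 CPM in Pkd2-KO for the convoluted and connecting tubule, and 644 CPM in Pkd2-miR-214-KO and 549 CPM in Pkd2-KO for intercalated cells. Upstream segments, which make little ENaC, had negative medians per the authors' deposited table, -0.47 over 8 thick ascending limb genes and -0.50 over 8 proximal tubule genes, with 0 calls in each. Folds were negative for 7 of the 8 limb genes and 8 of the 8 proximal genes. At an unadjusted p under 0.05 there were 3 limb genes, Ppp1r1a (-0.99 ± 0.38), Cldn19 (-0.58 ± 0.23) and Egf (-1.05 ± 0.45), and 1 proximal gene, Gatm (-0.99 ± 0.47), all lower in Pkd2-miR-214-KO per the authors' deposited table, against 4.82% of all genes in either direction. At the same threshold 1 principal cell marker, Krt18, and 1 intercalated cell marker, Atp6v0d2, were higher in Pkd2-miR-214-KO. Atp6v0d2 had a log2 ratio of 0.82 ± 0.26 (adjusted p = 0.232) per the authors' deposited table. The part of these tubule cells in the folds of the 9 genes was not tested.

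Markers of the adrenal gland and of blood cells had mostly positive folds. Of 10 adrenal genes, 10 folds were positive and 1 passed, Dbh (5.27 ± 1.31, adjusted p = 0.0475) per the authors' deposited table. The mean level of Dbh was -2.26 log2 CPM, low enough that the size of its fitted fold is poorly known. The summed implied level of the 10 adrenal genes was 13.6 CPM in Pkd2-miR-214-KO and 4.55 CPM in Pkd2-KO. Of that sum, Star alone made up 6.18 CPM in Pkd2-miR-214-KO and 3.59 CPM in Pkd2-KO, with a log2 ratio of 0.79 ± 0.60. Hsd3b1 made up 2.86 CPM in Pkd2-miR-214-KO and 0.07 CPM in Pkd2-KO, so most of the sum lay in few genes. Among the adrenal genes Cyp11b2, which encodes the enzyme that completes aldosterone synthesis, had a log2 ratio of 6.83 ± 2.31 (adjusted p = 0.344) and a mean level of -2.34 log2 CPM per the authors' deposited table. Sgk1 and Tsc22d3 are also expressed in leukocytes. All 6 measured B and plasma cell markers and all 7 neutrophil markers had positive folds with 0 calls, with summed implied levels of 31.8 CPM in Pkd2-miR-214-KO and 5.77 CPM in Pkd2-KO for the B cell list, and 17.1 CPM in Pkd2-miR-214-KO and 5.42 CPM in Pkd2-KO for the neutrophil list. At an unadjusted p under 0.05 there were 6 of the 6 B and plasma cell markers, 6 of the 7 neutrophil markers, 4 of the 10 adrenal, 2 of the 6 macrophage and 2 of the 5 erythroid genes, all with positive folds, against 4.82% of all genes in either direction. Of 6 measured macrophage genes 4 folds were positive and 1 passed, Cd163 (1.76 ± 0.35, adjusted p = 0.00126) per the authors' deposited table. The other positive folds were Mrc1 (0.51 ± 0.24), Cd68 (0.40 ± 0.35) and Itgam (0.13 ± 0.22). Emr1 (-0.37 ± 0.27) and Csf1r (-0.03 ± 0.22) had negative folds, so the macrophage markers did not share 1 direction. Their summed implied level was 393 CPM in Pkd2-miR-214-KO and 335 CPM in Pkd2-KO. Of 5 erythroid genes 5 folds were positive with 0 calls, and their summed implied level was 1028 CPM in Pkd2-miR-214-KO and 361 CPM in Pkd2-KO. Hba-a1 and Hba-a2 had the same implied means, 212 CPM in Pkd2-miR-214-KO and 79.7 CPM in Pkd2-KO, and both enter that sum. They may therefore not be separate measurements. The lowest mean level in these lists was a log2 CPM of -4.05, that of the adrenal gene Pnmt, per the authors' deposited table. The part of these cells in the folds of the 9 genes was not tested.

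The genotype was checked at its own loci. Mir214 had a log2 ratio of -7.62 ± 1.08 (adjusted p = 1.34e-08) and a mean level of -1.83 log2 CPM per the authors' deposited table, low enough that the size of a fitted fold is poorly known. Since the table's headers do not name the direction, the sign of Mir214 was used to read positive folds as higher in Pkd2-miR-214-KO. Pkd2, deleted in tubules of both genotypes, had a log2 ratio of -0.11 ± 0.23 (adjusted p = 1) per the authors' deposited table. Xist, made from the inactive X chromosome of female cells, had a log2 ratio of 10.21 ± 2.36 (adjusted p = 0.0168) per the authors' deposited table. Its mean level was 9.02 log2 CPM, so a fold of this size places nearly all Xist RNA in Pkd2-miR-214-KO kidneys. By this RNA the 2 genotypes differed in the sexes of their animals, which the labels do not give. How many animals were female is not known from these values. Sex and genotype cannot be told apart in the folds of the 9 genes with the values used here. Tsc22d3 lies on the X chromosome, and the part of sex in the folds of the 9 genes was not tested.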

How the data were processed

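RNA of whole kidneys was sequenced from 3 Pkd2-miR-214-KO and 3 Pkd2-KO mice, per the labels. The tools in the submitters' processing notes are TopHat2 2.0.12 and edgeR, with mm10 as the build. The way reads were counted, strand, filters on low counts and depth were not given in the sources used here. Per the file headers, the authors' table holds for each gene a log2 ratio, a mean level as log2 CPM, a likelihood ratio (a score) and a raw and an adjusted p-value. The p-values equalled the chi-square tail of the ratio on 1 degree of freedom, and the adjusted ones the Benjamini-Hochberg adjustment over 20138 genes, with differences of at most 5.1e-14. Tests on counts per library, and leaving out animals, were planned and not run, since the table used here has 1 value per gene and no library columns were analysed.

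The approximate SE was the absolute log2 ratio over the square root of the likelihood ratio, and 95% intervals follow the normal distribution. Implied genotype means take the deposited mean as the plain mean of both genotypes. The SE formula and the adjustment were run on simulated folds. There the formula returns the set SE by construction, so that run could not test it on real counts. The coverage of the intervals and the implied means were not tested. Exon lengths and 3' UTRs came from GENCODE M21, whose symbols matched 19024 genes to a single gene each, and promoters and miRNAs from RefSeq (GRCm38.p6, the assembly of mm10). Named genes were the 9, the targeted loci, up to 4 genes with the smallest p of each list, and all pump, FXYD and acid-sensing channel genes. Some genes that this rule names are not reported here. Xist was added after its value was seen. The 9 genes, the lists and the threshold of 0.05 were chosen with earlier results of these data known. The p-values rest on the spread between these animals as the authors' test estimated it. Whether animals of a genotype shared a litter is not given. The animal numbers were 867, 868 and 871 for Pkd2-KO and 864, 952 and 1164 for Pkd2-miR-214-KO. The part of litter or cohort in the folds was not tested. Scripts ran under Python 3.11.15 with scipy 1.17.1, numpy 2.4.6, pandas 2.3.3 and, for the figures, matplotlib 3.10.9.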

Additional observations from a re-analysis of the deposited data

How the results depend on the processing

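At an unadjusted p under 0.05 the count of the 9 genes past the threshold was 1 in place of 0, and that of the 68 pathway genes 4 in place of 0. Both counts stayed at 0 with an adjusted p under 0.1 and with the adjustment made over genes with a mean log2 CPM of at least 0 (14520 genes, smallest adjusted p of the 9 genes 0.912) or 3 (11406 genes). The median log2 ratio of the 9 genes lay between 0.296 and 0.304 under 3 other centrings, and none of the 9 folds changed sign. The 3 centres were 0, 0.0015 and 0.0080, and the first equals no centring. All were smaller than the fold nearest to 0, that of Nr3c2 (-0.043), so no sign could have changed. Their median level per length was 60.1 CPM per kb over all exons and 89.3 CPM per kb over the longest transcript. A 6-base match to the miR-214-3p seed was in 3 of the 9 UTRs (48.9% of all UTRs) and an 8-base match in 0, against 2 with 7 bases. For the 5p seed a 6-base match was in 4 and an 8-base match in 0, against 0 with 7 bases. Leaving out each animal in turn, edgeR's quasi-likelihood test and DESeq2 were not run, because they need values per library. Depth is unknown.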
